A study of Mus musculus with 27 samples.

Results

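The genes described here encode the enzymes that build cholesterol and fatty acids, together with proteins that switch these enzymes on or off. They were chosen by their place in these pathways. All 28 of 28 named genes were found among the 40129 genes of the table, and all 28 had a mean of at least 1 normalized read and were tested together with the other genes, 27137 in all. They comprise 7 genes of the mevalonate pathway, 3 genes from squalene to lanosterol, 9 genes from lanosterol to cholesterol, 4 genes of regulation and transport and 5 genes of fatty acid synthesis. The study sequenced RNA of the whole retina from wild-type C57BL/6J mouse pups (C57BL/6 in the sample labels). In the oxygen-induced retinopathy (OIR) model, pups breathed air enriched in oxygen during the second postnatal week, lost central retinal vessels and were then returned to room air. Retinas were taken at postnatal day (p) 14, when large areas lack vessels, or at p17, when retinal neovascularization peaks. Pups of the same ages that stayed in room air (nOIR) were the controls. The comparisons used 6 OIR and 6 nOIR mice at p14, and 8 OIR and 6 nOIR mice at p17. All mice carried no transgene or deletion, pups of both sexes were used, and a library held 1 or both retinas of a mouse.

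Cholesterol is built from acetyl-CoA. The mevalonate pathway makes isoprenoid units, which are joined to squalene, closed to lanosterol and trimmed to cholesterol. Sterol regulatory element-binding proteins switch on the genes of this pathway when sterols in the endoplasmic reticulum fall short, and the Insig proteins hold these factors back when sterols are plentiful. Fatty acid synthesis starts from the same acetyl-CoA and is driven mainly by the factor that Srebf1 encodes. The retina makes part of its own cholesterol and takes up the rest from the blood, and Müller glia and neurons hand cholesterol and its precursors to one another.

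The promoters of these genes are shown because a single family of factors is known to bind many of them. RefSeq windows of 300 bases on build GRCm38.p6, from 250 bases before to 50 bases after a gene's start, were available for 22 of the 28 genes and not for Scd1, Fdps, Fdft1, Sqle, Stard4 and Scd2. The windows below belong to 3 genes that were lower in OIR mice (Hmgcs1, Idi1, Insig1) and to the 1 gene of the pathway that was higher at both ages (Pmvk). RefSeq lists 2 windows for Pmvk, and the upstream one is shown. All 4 lie on the plus strand, at chr13:119690101-119690400 for Hmgcs1, chr13:8885356-8885655 for Idi1, chr5:28071162-28071461 for Insig1 and chr3:89454291-89454590 for Pmvk. Capitals mark a CCAAT box (CCAAT, or ATTGG on the other strand), a sterol regulatory element (SRE, searched as TCACNCCAC) and an E-box (CACGTG), each searched on both strands, and no match overlaps another in these windows.
Hmgcs1: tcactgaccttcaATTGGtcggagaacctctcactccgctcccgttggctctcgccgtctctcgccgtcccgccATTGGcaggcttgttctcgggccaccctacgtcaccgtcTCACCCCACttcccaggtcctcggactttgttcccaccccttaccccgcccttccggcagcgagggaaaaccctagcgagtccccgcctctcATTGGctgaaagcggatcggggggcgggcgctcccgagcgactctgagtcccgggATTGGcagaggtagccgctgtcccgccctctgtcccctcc
Idi1: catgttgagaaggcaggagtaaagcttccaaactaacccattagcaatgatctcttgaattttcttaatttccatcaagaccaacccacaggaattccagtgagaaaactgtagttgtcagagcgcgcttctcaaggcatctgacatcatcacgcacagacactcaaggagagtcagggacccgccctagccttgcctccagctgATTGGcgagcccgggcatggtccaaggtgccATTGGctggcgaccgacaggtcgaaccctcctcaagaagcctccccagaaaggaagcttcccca
Insig1: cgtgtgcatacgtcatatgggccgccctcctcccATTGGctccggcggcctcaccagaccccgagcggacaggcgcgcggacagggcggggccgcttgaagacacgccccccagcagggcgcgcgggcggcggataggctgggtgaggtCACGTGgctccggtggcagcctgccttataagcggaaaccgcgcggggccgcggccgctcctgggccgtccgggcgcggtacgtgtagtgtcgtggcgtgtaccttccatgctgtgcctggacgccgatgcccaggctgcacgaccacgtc
Pmvk: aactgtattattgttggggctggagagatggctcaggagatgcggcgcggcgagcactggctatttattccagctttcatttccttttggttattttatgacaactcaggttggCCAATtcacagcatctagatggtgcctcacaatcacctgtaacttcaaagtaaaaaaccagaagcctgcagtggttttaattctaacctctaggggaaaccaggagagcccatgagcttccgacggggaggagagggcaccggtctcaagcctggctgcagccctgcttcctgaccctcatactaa
A CCAAT box was present in 20 of the 22 genes with a window, and in 41.1% of all 27025 genes with a window of this length. In Hmgcs1 the CCAAT boxes began at -237, -176, -45 and 11 from the start, and in Idi1 at -45 and -14. The window of Pmvk shown carried 1 such box, at -136, and Insig1 1 at -216. The other window of Pmvk, at chr3:89459321-89459620, held none of the 3 motifs. The SRE letters were found in 1 of 22 genes, Hmgcs1, at -137, against 1.44% of all genes. An E-box was found in 4 of 22 genes (Hsd17b7, Sc5d, Dhcr7 and Insig1) against 8.09% of all genes. Base composition was not matched in these shares, and a match of letters is a description and not a binding site.

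Values are normalized reads, which are the authors' read counts divided by 1 size factor per mouse. The total of whole reads lay between 17029536 and 33593428 per mouse, with a median of 30024568, and the lowest total was that of OIR p17 mouse S1. At these depths the least abundant of the genes, Scd1, still had between 18.3 and 214 normalized reads in every mouse used. One nOIR p14 mouse, S4, was left out as in the study. OIR p14 mouse S1 stood apart from the other OIR p14 mice in several of the genes, and is named where a result turns on it. Rod, cone, bipolar, amacrine, ganglion and Müller glia markers were all detected in every group, as the label retina requires. Lens markers varied in every group, from a summed 4.44 to 26977 normalized reads over the mice, and their part in the results was not tested. The study's methods give fewer litters than mice in every group, so some mice of a group are littermates. The litter of each mouse is not in the labels, so mice were taken as independent, and the spread between them may understate that between litters. Log2 fold changes (log2FC) were estimated by limma on log2(normalized reads + 1), are given with their standard error (SE), and have p-values adjusted by the Benjamini-Hochberg method over all genes tested. A gene was called when its adjusted p was under 0.05.

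Of the 19 enzymes of sterol synthesis, 7 were called lower and 1 higher in OIR than in nOIR retinas at p14. At p17, 9 were called lower and 2 higher. None of the 5 fatty acid synthesis genes was called, which says little for so few genes at the shares of all genes given next. Over all the genes described, 9 of 28 were called lower and 1 higher at p14, where 2.91% and 3.18% of all genes tested were called lower and higher. At p17, 10 of 28 were called lower and 2 higher, against 5.12% and 7.39% of all genes tested. Müller glia markers were lower too, with 4 of 6 called lower at p14 and 5 of 6 at p17. With their sum as covariate, 0 of 28 genes were called at p14, against 1.31% higher and 0.641% lower of all genes tested. At p17, 1 was called higher and 2 lower in that fit, against 6.07% and 6.7%. That covariate cannot be told apart from the oxygen exposure. In a bulk sample, fewer cells of a type and less RNA per cell cannot be told apart. The median log2FC over the 28 genes was -0.24 at p14 and -0.23 at p17, and over all genes tested 0.02 and -0.02. At each age 22 of 28 log2FC lay below 0. The changes were modest in size, since the log2FC ranged from -0.81 to 0.75 at p14 and from -0.69 to 0.98 at p17, and 0 of 28 genes reached the study's threshold of a log2FC beyond 2. The genes called at both ages were 9, namely Acat2, Hmgcs1, Idi1, Fdps, Fdft1, Sqle, Msmo1 and Insig1, which were lower, and Pmvk, which was higher. Srebf2 was called only at p14, and Cyp51, Nsdhl and Lbr only at p17. A total of 15 genes were called at neither age. OIR and nOIR mice did not overlap at p14 in 6 genes that were lower and 1 that was higher, against 1.86% and 1.91% of all genes tested. At p17 they did not overlap in 5 genes that were lower and 0 that were higher, against 1.98% and 3.9% of all genes tested. The plot of log2FC by role shows both ages side by side.

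**Figure D1:**
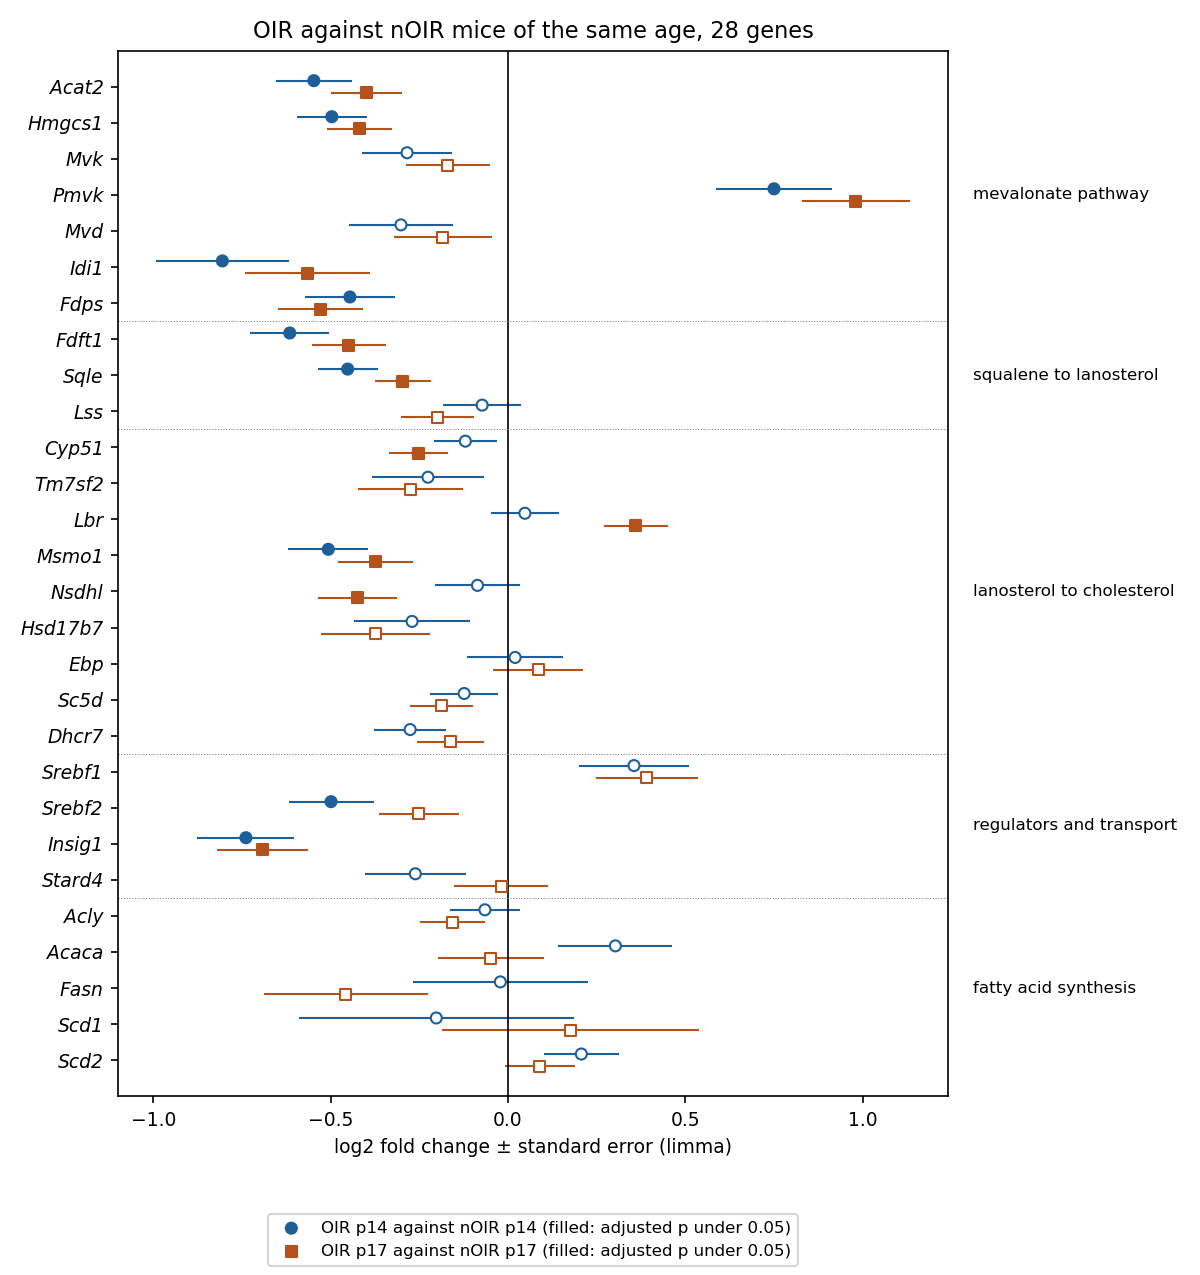
Log2FC of OIR against nOIR mice for each of the 28 genes at p14 (circles) and p17 (squares), with bars of 1 SE from limma and the genes in the order of their role. Filled symbols have an adjusted p under 0.05. Most cholesterol genes lie left of 0 at both ages, Pmvk lies at 0.75 and 0.98, and the 5 fatty acid synthesis genes are all open.

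The mevalonate pathway held the largest change in each direction at p14, in Idi1 and Pmvk. Of its 7 genes, 4 were called lower and 1 higher at each age. Hmgcs1 encodes the cytosolic synthase that joins acetyl-CoA to acetoacetyl-CoA. It had 3969.8 to 4659 (median 4213) normalized reads in nOIR p14 mice and 2625 to 3573 (median 2993) in OIR p14 mice. At p17 the nOIR mice ranged from 3786 to 4464 (median 4196) and the OIR mice from 2282 to 3575 (median 3208). Every OIR mouse lay below every nOIR mouse of its age. The log2FC of Hmgcs1 was -0.50 ± 0.10 at p14 (adjusted p = 0.00143) and -0.42 ± 0.09 at p17 (adjusted p = 0.00171). Acat2, the thiolase that makes acetoacetyl-CoA just before this step, was likewise separated at both ages. Its levels were 952 to 1234 (median 1038) in nOIR and 579 to 869 (median 733) in OIR mice at p14. At p17 they were 754 to 1116 (median 817) and 571 to 751 (median 659), so that the highest OIR mouse came close to the lowest control. Acat2 had a log2FC of -0.55 ± 0.11 at p14 (adjusted p = 0.00118) and -0.40 ± 0.10 at p17 (adjusted p = 0.00572).

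Idi1 and Fdps act further down, Idi1 by turning isopentenyl diphosphate into its isomer and Fdps by joining these units to farnesyl diphosphate. Idi1 fell more than any other of the 28 genes at p14. It ranged from 196 to 272 (median 228) in nOIR and from 89.6 to 203 (median 127) in OIR mice, and 5 of 6 OIR mice lay below all controls. At p17 the ranges were 192 to 243 (median 207) and 80.9 to 185 (median 164), without overlap. The log2FC of Idi1 was -0.81 ± 0.19 at p14 (adjusted p = 0.00659) and -0.57 ± 0.18 at p17 (adjusted p = 0.0293), and the call at p17 was lost under 8 of 40 alternatives. Fdps had 186 to 265 (median 207) normalized reads in nOIR and 127 to 194 (median 158) in OIR mice at p14. At p17 the 8 OIR mice lay close together at 128 to 153 (median 143), below all controls at 175 to 238 (median 199). Its log2FC was -0.45 ± 0.13 at p14 (adjusted p = 0.0313) and -0.53 ± 0.12 at p17 (adjusted p = 0.0021). The p14 call was lost under 9 of 40 alternatives. In GENCODE M21, a related release and not the one the authors counted on, 26.7% of the exon bases of Fdps lie in another gene on the same strand, Gm43738, and reads of such bases may be left uncounted. Mvk and Mvd, a kinase and a decarboxylase of the pathway, were not called. Their log2FC were -0.28 ± 0.13 and -0.30 ± 0.15 at p14, and -0.17 ± 0.12 and -0.18 ± 0.14 at p17.

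Pmvk, the kinase that adds the second phosphate to mevalonate, differed from the rest of the pathway by being higher. It ranged from 1350 to 1662 (median 1539) normalized reads in nOIR p14 mice and from 1939.7 to 3456 (median 2580.4) in OIR p14 mice. At p17 it ranged from 1049.8 to 1428 (median 1275) in nOIR and from 1389 to 3986 (median 2523) in OIR mice. At p14 the groups were separate, and at p17 all but 1 OIR mouse lay above the controls. That mouse, S1, had 1389 normalized reads and is the mouse with the lowest read total. The log2FC was 0.75 ± 0.16 at p14 (adjusted p = 0.00367; exact permutation p = 0.00216, two-sided, the smallest that 6 against 6 mice allow) and 0.98 ± 0.15 at p17 (adjusted p = 2.18e-05; exact permutation p = 0.00133). OIR p14 mouse S1 had the highest value at p14, 3456, and over 40 alternatives the log2FC lay between 0.66 and 1.02 at p14 and between 0.22 and 1.19 at p17. The p14 call was lost with Müller glia markers as a covariate, though the log2FC stayed at 0.76 (adjusted p = 0.121). The p17 call was lost with endothelial markers, at a log2FC of 0.22 (adjusted p = 0.875). The 2 genes beside Pmvk in RefSeq were looked at after its values were known. Pbxip1 was also higher, with a log2FC of 0.97 ± 0.16 at p14 (adjusted p = 0.000196) and 1.10 ± 0.15 at p17 (adjusted p = 2.76e-06). Kcnn3 was not called, at 0.11 ± 0.47 and 0.57 ± 0.44. Whether reads of a neighbour enter the Pmvk count was not tested.

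**Figure D2:**
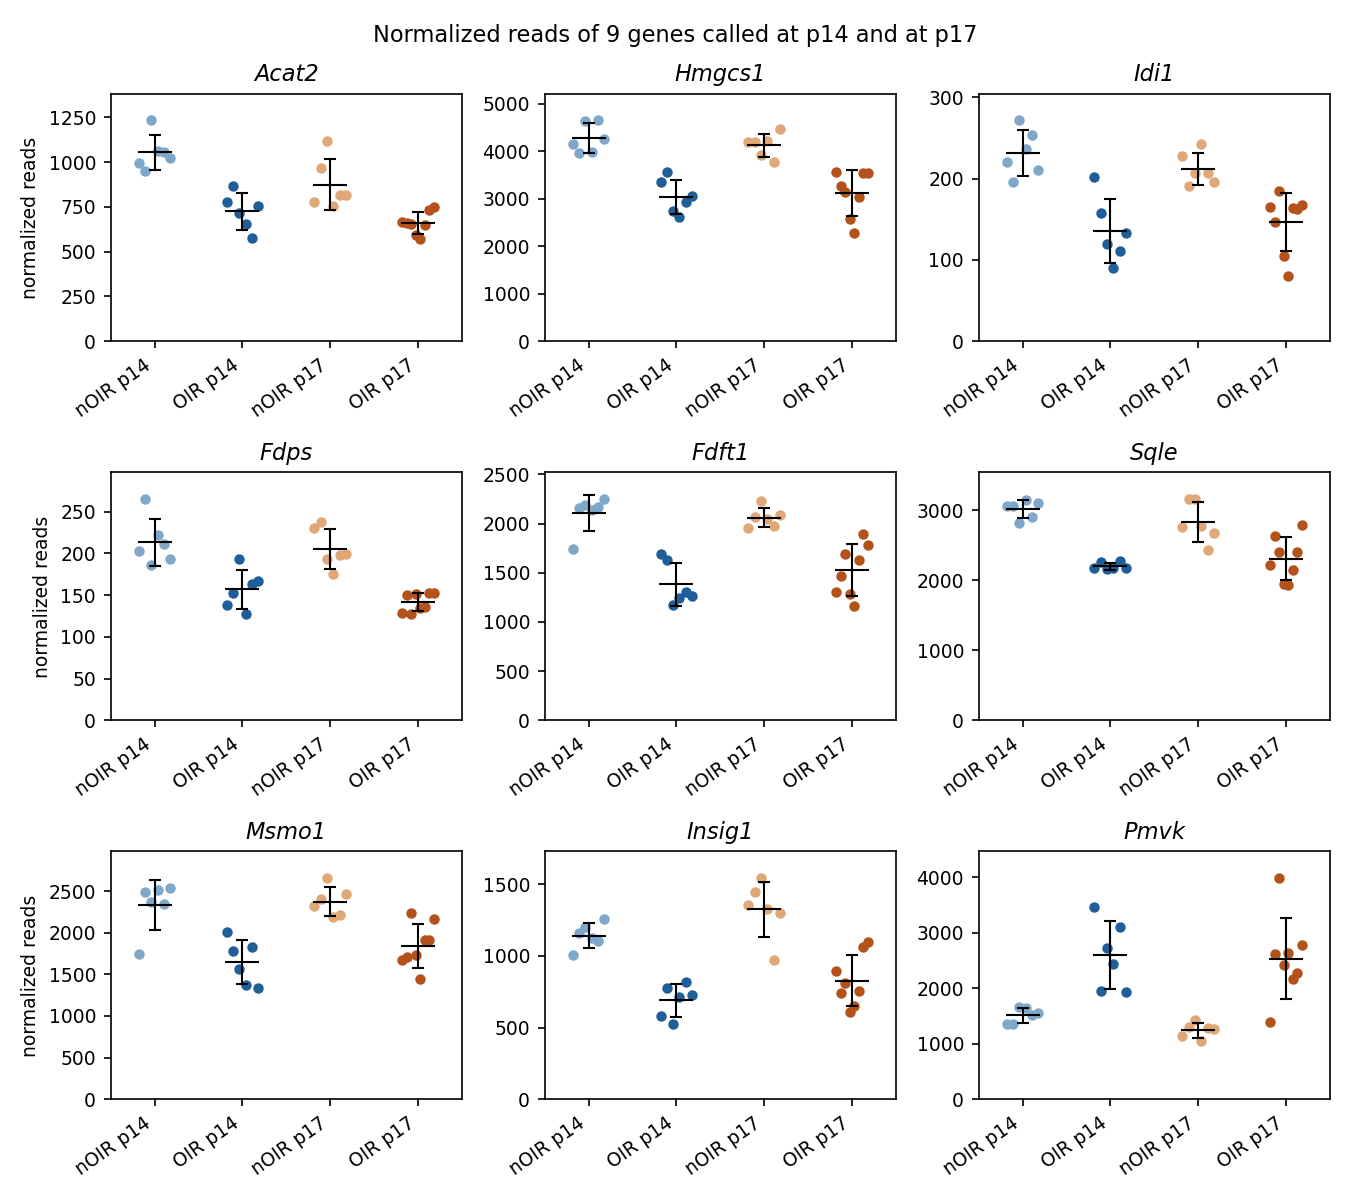
Normalized reads (linear axes from 0) of the 9 genes called at both ages, 1 point per mouse of each exposure and age, with horizontal bars for the mean and whiskers for 1 SD. In 8 panels the OIR means lie below those of their age controls, with points that overlap in Idi1, Fdps and Msmo1 at p14 and in Sqle, Msmo1 and Insig1 at p17. In the Pmvk panel the OIR means lie higher, and OIR p17 mouse S1, at 1389, overlaps the controls.

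Between squalene and lanosterol, the first 2 enzymes were lower and the last was not called. Fdft1 encodes squalene synthase, the first enzyme that serves sterols alone. It ranged from 1745 to 2249 (median 2163) normalized reads in nOIR p14 and from 1176 to 1694 (median 1284) in OIR p14 mice. At p17 the ranges were 1953 to 2231 (median 2054) and 1166 to 1898 (median 1548). OIR mice lay below all controls at both ages, and the log2FC was -0.62 ± 0.11 (adjusted p = 0.000486) at p14 and -0.45 ± 0.10 (adjusted p = 0.0027) at p17. The unstranded library cannot tell Fdft1 from the opposite gene Ctsb in 18.3% of its exon bases. Genes on the opposite strand likewise cover 12.1% of the exon bases of Hmgcs1, 9.2% of Idi1, 9.2% of Lbr and 3.8% of Cyp51. Sqle encodes squalene monooxygenase, a rate-limiting step. At p14 its 6 OIR mice were the tightest group of any of the genes, at 2166 to 2279 (median 2176), below controls at 2818 to 3147 (median 3059.5). At p17 the OIR mice ranged from 1939 to 2788 (median 2309.6) and the nOIR mice from 2432 to 3161 (median 2770.0), with some overlap. The log2FC was -0.45 ± 0.08 (adjusted p = 0.000749) at p14 and -0.30 ± 0.08 (adjusted p = 0.00966) at p17. Lss, the cyclase that forms lanosterol, had a log2FC of -0.07 ± 0.11 at p14 and -0.20 ± 0.10 at p17, with overlapping groups.

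Of the 9 genes from lanosterol to cholesterol, 1 was called lower at p14, and at p17 3 were called lower and 1 higher. Msmo1, the oxidase that removes the methyl groups at carbon 4, was lower at both ages. It ranged from 1748 to 2542 (median 2433) in nOIR and from 1340.1 to 2006 (median 1675) in OIR mice at p14. At p17 it ranged from 2191 to 2656 (median 2364) and from 1442 to 2234 (median 1819.7). The groups overlapped at both ages, and the log2FC was -0.51 ± 0.11 (adjusted p = 0.00428) and -0.37 ± 0.10 (adjusted p = 0.0149). Nsdhl, an X-linked dehydrogenase of the same complex, was called at p17 alone, where 7 of 8 OIR mice lay below the controls. Its OIR p17 mice had 443 to 589 (median 518) and the nOIR p17 mice 588 to 802 (median 676) normalized reads. The log2FC was -0.42 ± 0.11 at p17 (adjusted p = 0.00832) and -0.09 ± 0.12 at p14 (adjusted p = 0.815). At p14 the OIR group held 1 high mouse, S1, at 887 normalized reads of Nsdhl against 549 to 664 in the other OIR mice. Cyp51, the lanosterol demethylase, was called at p17 with a log2FC of -0.25 ± 0.08 (adjusted p = 0.0441), from 1320.0 to 1945 (median 1656) in OIR and 1666 to 2214 (median 1979.5) in nOIR mice. That call was lost under 18 of 40 alternatives.

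Lbr and Tm7sf2 encode sterol reductases for the same step, and Lbr is also a receptor of the inner nuclear membrane that binds lamin and chromatin. Lbr was called higher at p17, with 969.6 to 1416 (median 1253) normalized reads in OIR and 856 to 1182 (median 927) in nOIR mice. Of 8 OIR mice, 7 lay above all controls, and the exception, S4, had 969.6. The log2FC of Lbr was 0.36 ± 0.09 at p17 (adjusted p = 0.00587) and 0.05 ± 0.10 at p14 (adjusted p = 0.889). Tm7sf2 had a log2FC of -0.23 ± 0.16 at p14 and -0.27 ± 0.15 at p17 and was not called. Per kilobase of exon, taken over all transcripts of a gene, Lbr had the higher mean of this pair in nOIR p17 mice. The means were 202 ± 25.2 for Lbr and 102 ± 18.5 (SD) normalized reads for Tm7sf2. In GENCODE M21, 12.1% of the exon bases of Tm7sf2 lie in another gene on the same strand, Vps51. Reads of such bases may be left uncounted, and the order of the pair by transcript length was not tested. The remaining genes, Hsd17b7, Ebp, Sc5d and Dhcr7, were not called at either age. Dhcr7, the last reductase of the route, had a log2FC of -0.28 ± 0.10 at p14, where 5 of 6 OIR mice lay below all controls (adjusted p = 0.12). Its p14 levels were 1576 to 2097 (median 1655) in nOIR and 1261 to 1641 (median 1428) in OIR mice. Hsd17b7, a ketone reductase that completes the demethylation at carbon 4, was not called at p14 (log2FC -0.27 ± 0.16) or p17 (-0.37 ± 0.15, adjusted p = 0.124). In the older pups it ranged from 425 to 621 (median 508) in nOIR and from 286 to 544 (median 405) in OIR mice, and 4 of 8 OIR mice lay below the controls. Sc5d, a desaturase of the sterol ring, lay at -0.12 ± 0.10 and -0.19 ± 0.09. In the younger pups 4 of 6 OIR mice lay below the controls while S1, at 2354, lay above them, and at p17 5 of 8 lay below. Ebp, the isomerase of the sterol ring, lay at 0.02 ± 0.14 and 0.09 ± 0.13, with overlapping groups at both ages. With summed rod markers as a covariate, Ebp was called higher at both ages, at 0.40 (adjusted p = 0.0274) and 0.38 (adjusted p = 0.00741).

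Among the regulators, Insig1 was called lower at both ages and Srebf2 at p14 alone. Srebf1 had a positive log2FC and was called at neither age in the main fit. Insig1, itself a target of the sterol factors, showed the largest decrease of the 28 genes at p17. At p14 it ranged from 1005 to 1255 (median 1143) in nOIR and from 526.4 to 819.6 (median 721) in OIR mice. At p17 the ranges were 973 to 1543 (median 1342) and 606 to 1099 (median 784). The p14 groups did not overlap, and at p17 6 of 8 OIR mice lay below the controls. The log2FC was -0.74 ± 0.14 (adjusted p = 0.000686) and -0.69 ± 0.13 (adjusted p = 0.000224). Srebf2 encodes the factor that acts mainly on cholesterol genes. It ranged from 3341 to 3745 (median 3699) in nOIR and from 1595 to 3001 (median 2871) in OIR mice at p14, without overlap. Its log2FC was -0.50 ± 0.12 at p14 (adjusted p = 0.00864) and -0.25 ± 0.11 at p17 (adjusted p = 0.163). At p17 it ranged from 3441 to 3877 (median 3648.5) in nOIR and from 2614 to 3903 (median 2952) in OIR mice, where 6 of 8 OIR mice lay below all controls and 1 lay above them.

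Srebf1, which acts mainly on fatty acid genes, had a log2FC of 0.36 ± 0.15 at p14 (adjusted p = 0.215) and 0.39 ± 0.14 at p17 (adjusted p = 0.0753). At p14 5 of 6 OIR mice lay above all controls, and the sixth, S1, lay below all of them at 1543. Without that mouse the p14 log2FC was 0.53 (adjusted p = 0.00446). At p17 the OIR mice ranged from 2363 to 3915 (median 3058) and the nOIR mice from 1894 to 2629 (median 2405), and 6 of 8 OIR mice lay above the controls. DESeq2 on recovered reads called Srebf1 higher at p17 (log2FC 0.40, adjusted p = 0.0441), and limma did so when OIR p14 mouse S1, which enters the shared spread, was left out (adjusted p = 0.00956). Stard4, a carrier of cholesterol between membranes, lay at -0.26 ± 0.14 and -0.02 ± 0.13 and was not called.

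None of the fatty acid synthesis genes was called without a covariate. By limma 0 of 5 were called at either age, with 0 of 5 at an unadjusted p under 0.05, and edgeR and DESeq2 on recovered reads also called 0. Of all genes tested, limma called 2.91% lower and 3.18% higher at p14, and 5.12% and 7.39% at p17. With only 5 genes, 0 calls is near these shares and does not set them apart from other genes. Their median log2FC was -0.02 at p14 and -0.05 at p17. Fasn, the synthase that builds palmitate, varied widely among OIR mice. It ranged from 2741 to 5030.0 (median 3803) in nOIR and from 1507 to 6037 (median 3665) in OIR mice at p14. At p17 it ranged from 3242 to 4807 (median 3931) and from 1883 to 4311 (median 2914), with 5 of 8 OIR mice below the controls and a log2FC of -0.46 ± 0.23 (adjusted p = 0.235). The 95% interval of that log2FC ran from -0.94 to 0.02, so that a decrease of the size seen in Idi1 or none at all both lie within it. With summed rod markers as a covariate, Fasn was called lower at p17, with a log2FC of -0.86 (adjusted p = 0.00798). Acly, which cuts citrate to acetyl-CoA and so feeds both pathways, lay at -0.06 ± 0.10 and -0.16 ± 0.09. Acaca, the carboxylase that commits acetyl-CoA to fatty acids, lay at 0.30 ± 0.16 and -0.05 ± 0.15. The p14 levels of Acaca were 697 to 1312 (median 935) in nOIR and 984 to 1342 (median 1156) in OIR mice. Scd2 and Scd1 encode desaturases that make monounsaturated fatty acids, and Scd2 was by far the more abundant of them in these retinas. Per kilobase of exon, Scd2 had a mean of 2191 ± 163 (SD) and Scd1 of 21.4 ± 6.32 normalized reads in nOIR p14 mice. At p14, 3 of 6 OIR mice lay above all controls in Scd2, at 12098 to 16172 (median 13368) against 11125 to 13179 (median 11586). Scd2 had a log2FC of 0.21 ± 0.11 and 0.09 ± 0.10, and Scd1 of -0.20 ± 0.39 and 0.18 ± 0.36.

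Averaged within each mouse, the sterol genes separated OIR from nOIR mice at p14 and not at p17, and the fatty acid genes at neither age. These averages include the genes called above and are a description. Each gene's log2 value was set against its nOIR mean of the same age and averaged over the 19 enzymes of sterol synthesis. At p14 the OIR mice lay between -0.36 and -0.12 (median -0.28) and the nOIR mice between -0.05 and 0.07. At p17 the OIR mice lay between -0.41 and -0.02 (median -0.17) and overlapped the nOIR mice, at -0.07 to 0.07. The 2 OIR p17 mice nearest to 0 were S7, at -0.026, and S8, at -0.020. The 5 fatty acid genes gave -0.28 to 0.41 in OIR p14 and -0.82 to 0.20 in OIR p17 mice, across the range of the controls.

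**Figure D3:**
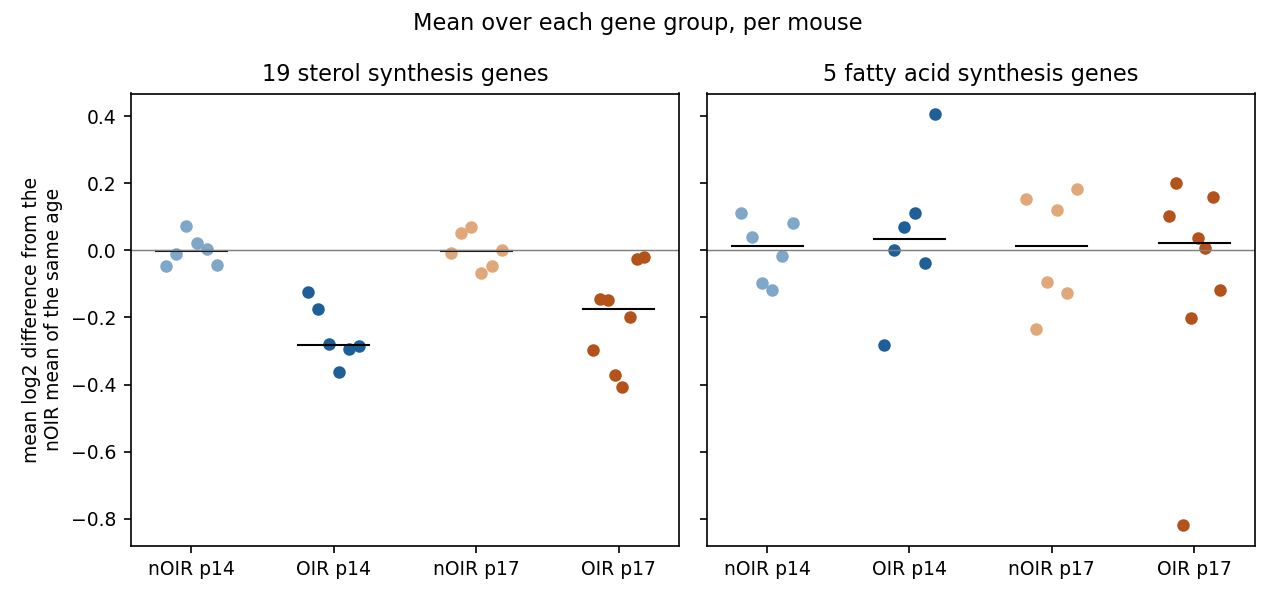
Mean log2 difference from the nOIR mean of the same age, 1 point per mouse and a line at each group's median, for the 19 sterol synthesis genes (left) and the 5 fatty acid synthesis genes (right). On the left the OIR mice lie between -0.36 and -0.12 at p14, below all nOIR mice, and between -0.41 and -0.02 at p17, where they overlap the nOIR mice. On the right the groups overlap at both ages.

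Few genes of any kind were called for age alone in nOIR mice, so the lack of calls among the 28 genes says little about them. From p14 to p17, limma called 0 of 28 higher and 0 lower in nOIR mice, against 0.158% of all genes in each direction, with 2 at an unadjusted p under 0.05. edgeR and DESeq2 called 0 as well. Those 2 were Dhcr7, with a log2FC of -0.33 ± 0.10 (adjusted p = 0.23), and Acat2, with -0.28 ± 0.11 (adjusted p = 0.448). The nOIR mice of both ages did not overlap in Dhcr7, at 1576 to 2097 (median 1655) at p14 and 1203 to 1499 (median 1407) at p17. With summed rod markers as a covariate, limma called Dhcr7 lower with age in nOIR mice, at -0.43 (adjusted p = 0.0384). In OIR mice, limma called 0 of 28 in either direction, against 4.11% of all genes called higher and 1.81% called lower, with 6 at an unadjusted p under 0.05. edgeR called 0 and DESeq2 called 1 lower, Nsdhl. The OIR effect at p17 was also set against that at p14 in the same fit. None of the 28 genes was called (0 higher, 0 lower, by limma, edgeR and DESeq2), against 1.43% and 0.147% of all genes. The 2 genes with an unadjusted p under 0.05 were Lbr, with a difference of effects of 0.31 ± 0.13 (log2, p17 minus p14; adjusted p = 0.365), and Nsdhl, with -0.34 ± 0.16 (adjusted p = 0.455). A difference between the ages was therefore not shown for the genes called at 1 age alone.

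A list of 32 further genes of lipid handling was read for comparison. At each age, 3 were called higher and 2 lower, against 3.18% and 2.91% of all genes tested at p14 and 7.39% and 5.12% at p17. At p17 these shares are close to those of all genes tested, and the genes below are given as values of single genes. Elovl6, which lengthens palmitate to stearate, was lower at both ages. It ranged from 1735 to 2205 (median 1913) normalized reads in nOIR and from 1117 to 1504.5 (median 1344) in OIR mice at p14, without overlap. At p17 the ranges were 1836 to 2467 (median 1976) and 1348 to 1895 (median 1661). The log2FC of Elovl6 was -0.52 ± 0.09 (adjusted p = 0.00037) and -0.31 ± 0.09 (adjusted p = 0.0132). Elovl4, which makes the very long fatty acids of photoreceptors, was called lower at p17, with a log2FC of -0.24 ± 0.08 (adjusted p = 0.0477). Scap, which escorts the sterol factors, was not called, at -0.18 ± 0.15 and -0.15 ± 0.14.

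The genes of the list called higher were Ch25h, Abca1 and Elovl2 at p14, and Ch25h, Elovl1 and Soat1 at p17. Ch25h, which makes an oxysterol, was at 0 in all nOIR p14 mice and between 1.05 and 15.1 (median 4.13) normalized reads in OIR p14 mice (adjusted p = 0.00135). At p17 it lay between 0 and 0.928 in nOIR and between 6.36 and 71.1 (median 27.0) in OIR mice (adjusted p = 1.55e-08). Abca1, the exporter of cholesterol to lipoproteins, was higher at p14, with 1611 to 2532 (median 1983) against 633 to 1344 (median 802) normalized reads and a log2FC of 1.25 ± 0.24 (adjusted p = 0.000858), and lay at 0.51 ± 0.22 at p17 (adjusted p = 0.154). Soat1, which esterifies cholesterol for storage, was higher at p17, with a log2FC of 0.83 ± 0.14 (adjusted p = 7.1e-05), and lay at 0.32 ± 0.15 at p14 (adjusted p = 0.269). Apoe, the main apolipoprotein of the retina and brain, was lower at p14, with a log2FC of -0.62 ± 0.14 (adjusted p = 0.00611). At p17 Apoe lay at 0.11 ± 0.13 (adjusted p = 0.71), and from p14 to p17 it was called higher in OIR mice, with 0.70 ± 0.13 (adjusted p = 0.000954). Between those ages in OIR mice, 6 of the 32 genes were called higher and 0 lower, against 4.11% and 1.81% of all genes tested. The log2FC was larger than that of Apoe in Ch25h (2.18, adjusted p = 0.00268) and in Nr1h3 (0.92, adjusted p = 0.0169). Of the other elongases of long fatty acids, Elovl1 was higher at p17, with 1.18 ± 0.11 (adjusted p = 4.46e-09), and its effect differed between the ages (difference 0.91 ± 0.16, adjusted p = 0.00144). Elovl2 was higher at p14, with 0.29 ± 0.09 (adjusted p = 0.0429).

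Markers of some retinal cell types moved with the same comparison, where 3.18% and 2.91% of all genes tested were called higher and lower at p14 and 7.39% and 5.12% at p17. Of 6 Müller glia markers, 4 were called lower at p14 and 5 at p17. Their summed normalized reads ranged from 62167 to 79947 in nOIR and from 48562 to 59370.1 in OIR mice at p14, and from 67493 to 77794 and 48456 to 66148 at p17, without overlap at either age. Aqp4, the water channel of Müller cell endfeet, had a log2FC of -0.78 ± 0.12 and -0.86 ± 0.11, whereas Slc1a3, their glutamate transporter, lay at 0.06 ± 0.09 and 0.19 ± 0.08. Rod markers were called lower in 2 of 6 genes at p14 and 3 of 6 at p17. Amacrine and ganglion cell markers were each called lower in 2 of 4 genes at both ages, and bipolar markers in 1 of 5 genes at p14 and 5 of 5 at p17. Cone markers were called lower in 1 of 5 genes at p14 and 0 of 5 at p17, and markers of the retinal pigment epithelium in 0 of 5 at both ages. At p14, 1 of 5 endothelial and 1 of 4 mural markers were called higher and 1 of each lower, and 2 of 6 markers of microglia and macrophages were called higher. At p17 all 5 endothelial and all 4 mural markers, 5 of 6 markers of microglia and macrophages and 5 of 5 red cell markers were called higher. Of 3 astrocyte markers, 2 were called higher at p14 and 3 at p17. Their summed normalized reads ranged from 845.7 to 1660.4 in nOIR and from 2789 to 8837 in OIR mice at p14, and from 672 to 1286 and 2772 to 9567 at p17, without overlap. The log2FC at p14 and p17 was 3.23 and 3.68 in Gfap, and 0.70 and 0.82 in Pdgfra. Pax2 lay at 0.76 (adjusted p = 0.544) and 1.82. Whether the astrocyte sum follows the number of astrocytes was not tested. Of 6 oligodendrocyte markers, 1 was called higher at each age. Their summed normalized reads ranged from 2302 to 2565 in nOIR p17 mice, and every OIR p17 mouse lay above that range. At p14 the groups overlapped. OIR p17 mouse S7 stood at 19040.0, against 2756 to 3940.5 in the other OIR p17 mice. Without that mouse, 2 of the 28 genes were called higher and 10 lower at p17, against 7.07% and 4.63% of all genes tested. Summed endothelial markers ranged from 6054 to 7913 normalized reads in OIR p17 and from 2843 to 3426 in nOIR p17 mice.

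The fits were repeated with a summed marker level as a covariate, an alternative added after the data had been seen. With Müller glia markers, 0 of 28 genes were called at p14, where 1.31% and 0.641% of all genes tested were called higher and lower. At p17, 1 was called higher (Pmvk) and 2 lower (Fdps and Acaca), against 6.07% and 6.7%. Acaca, not called without the covariate, lay at -0.70 (adjusted p = 0.015). Lbr lost its p17 call at a log2FC of 0.42 (adjusted p = 0.0576), against 0.36 without the covariate. The p14 log2FC of Fdft1 went from -0.62 to -0.17 and that of Sqle from -0.45 to -0.31, while that of Fdps was -0.52 and that of Pmvk 0.76. With endothelial markers, 1 gene was called higher and 8 lower at p14, against 2.52% and 1.6% of all genes tested, and Srebf2 lost its call at -0.45 (adjusted p = 0.093). At p17 0 of 28 were called, in a fit that called 0.147% and 0.0442% of all genes tested higher and lower. In that fit the p17 log2FC was -0.88 for Insig1, -0.85 for Nsdhl, -0.51 for Fdft1 and -0.48 for Acat2, and it was -0.05 for Fdps and 0.22 for Pmvk. With rod markers, 4.27% and 3.43% of all genes tested were called higher and lower at p14, and 9.41% and 9.68% at p17. In this fit, 6 of the 9 lower calls at p14 were kept and 3 were lost (Idi1 at -0.53, Msmo1 at -0.27 and Srebf2 at -0.45, against -0.81, -0.51 and -0.50 without the covariate), and Ebp was added to Pmvk among those called higher. At p17 the rod fit kept 3 of the 10 lower calls (Hmgcs1, Fdps and Insig1), lost 7 (Acat2, Idi1, Fdft1, Sqle, Cyp51, Msmo1 and Nsdhl) and added 3 (Lss, Tm7sf2 and Fasn), while Pmvk, Lbr and Ebp were called higher. Summed rod markers overlapped between the groups, at 854713.5 to 1174818 in OIR and 1122196 to 1376309 in nOIR mice at p14, and at 1004931 to 1562420 and 1201698 to 1576409 at p17. The overlap at p14 rested on OIR mouse S1 alone, since the other OIR p14 mice lay at or below 989916. At p14 the rod covariate is therefore also poorly told apart from the oxygen exposure. Because the Müller glia and endothelial sums did not overlap between OIR and nOIR mice of the same age (Müller glia at both ages, endothelial at p17), the covariate and the oxygen exposure cannot be told apart in those fits. Summed markers and the mean of the 8 genes called lower at both ages are plotted mouse by mouse.

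**Figure D4:**
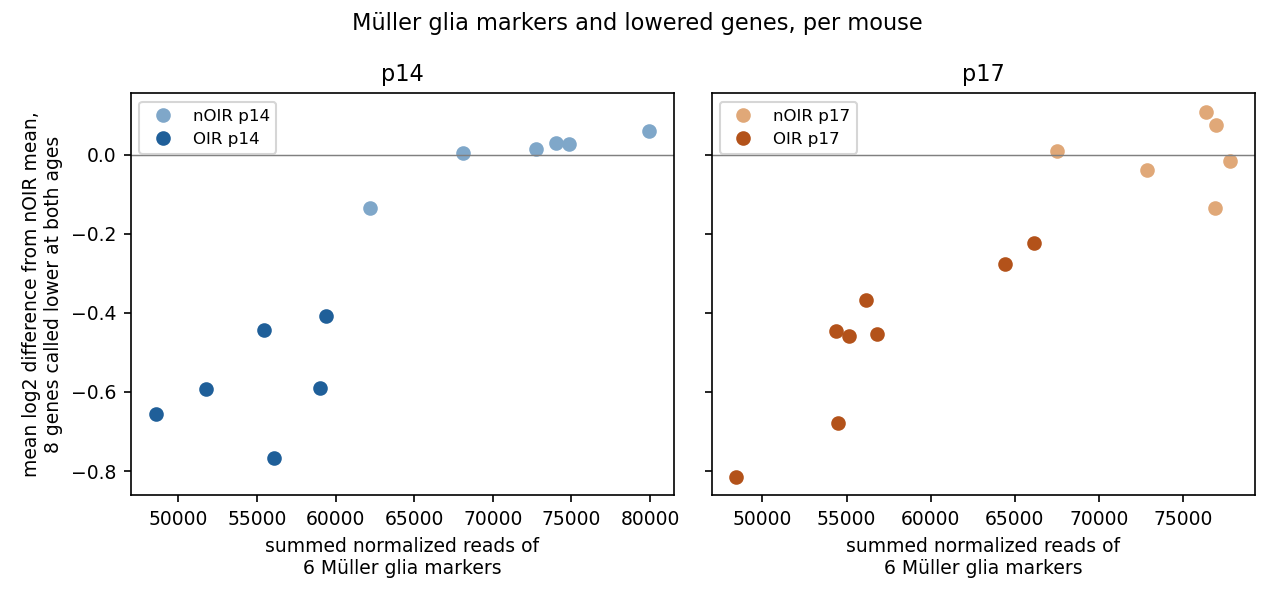
Summed normalized reads of 6 Müller glia markers (x axis) and mean log2 difference from the nOIR mean over the 8 genes called lower at both ages (y axis), 1 point per mouse, at p14 (left) and p17 (right). OIR mice lie low on both axes, at -0.77 to -0.41 at p14 and -0.82 to -0.22 at p17, and nOIR mice high on both. The 8 genes were chosen for being lower, so the vertical separation is a description.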

How the data were processed

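RNA of whole mouse retinas was sequenced by the authors with an unstranded kit, 1 library per mouse. Per the labels and methods, the authors checked reads with FastQC 0.73, mapped them with STAR 2.7.8a to a Gencode M28 reference, counted them on genes with featureCounts 2.0.1 and divided the counts by DESeq2 1.34 size factors in R 4.0.3. The deposited signal is therefore normalized reads. The deposited table also holds the authors' group means, log2 fold changes and adjusted p-values of OIR against nOIR, which were not used. Multiplied back, 100% of the values above 0 came within 0.001 of a whole read in every mouse. Reads are not independent molecules. No 2 mice of a group were copies of each other. The file gives symbols alone. Gene models and promoter windows come from GENCODE M21 and RefSeq on GRCm38, another build than the authors used, and served for names, lengths, overlaps and sequences.

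Samples were grouped by the treatment and age in the labels, and nOIR p14 mouse S4 was left out. To the normalized reads, 1 was added before log2. A gene was tested if its mean reached 1. Limma 3.58.1 (lmFit, eBayes with trend) in R 4.3.3 was fitted to all 4 groups at once, and Benjamini-Hochberg adjustment ran over all 27137 genes tested. Single genes were also tested by a two-sided exact permutation test over mice (Python 3.11.15, scipy 1.17.1, numpy 2.4.6, pandas 2.3.3). The limma step was tested on simulated data. All p-values measure the spread between mice, some of which are littermates.

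All 28 genes are named. Of the 32 further genes, at most the 3 largest called changes in each direction and comparison were named, besides Scap. Other genes of that list are not reported here. The genes, the lists and the tests were chosen with earlier results of these data known. The alternatives changed the pseudocount (0.1), the filter (no filter beyond a read in any mouse, or a mean of 10), the mice (S4 kept, or each mouse dropped in turn), the fit (compared groups alone, replicate block, log2 Xist as covariate), the scaling (equal totals, quantiles) or the tool (edgeR 4.0.16, DESeq2 1.42.0 on recovered reads). Summed rod, endothelial and Müller glia markers as covariates were added after seeing the data.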

Additional observations from a re-analysis of the deposited data

Results flagged for a closer look

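Within each group of mice, the 28 genes were searched for a single mouse that stood apart from the others by Dixon's criterion at the 95% level. Of 112 groups searched, 5 held such a mouse, and chance alone flags about 1 in 20. In nOIR p14 mouse S5, Mvk had 778.6 normalized reads, with the next mouse at 944.7. In nOIR p14 mouse S1, Fdft1 had 1745 normalized reads with the next mouse at 2135, and Msmo1 had 1748 with the next mouse at 2344. In OIR p14 mouse S1, Nsdhl had 886.7 normalized reads with the next mouse at 663.5, and Sc5d had 2354 with the next mouse at 1759.5.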

How the results depend on the processing

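Of 880 alternative values of called results, 807 stayed called in the same direction and 72 lost the call with the same sign. The remaining 1 also lost its call, with a log2FC of opposite sign near 0. It was Fdft1 at p17 with Müller glia markers as a covariate. Of 4692 alternative values of results not called, 21 were called, and 185 stayed uncalled with the opposite sign. With the replicate block 1 gene was called higher and 8 lower at p14, where Fdps lost its call (adjusted p = 0.096) and 2.69% and 2.4% of all genes tested were called higher and lower, and 2 were called higher and 10 lower at p17, against 6.96% and 4.68%. Same-numbered mice had a median correlation of 0.003 (from -0.108 to 0.161) over 34 pairs. Mice of other numbers had a median of -0.001 (from -0.215 to 0.15) over 218 pairs. Correlations over 0.1 were seen in 4 of the 34 and 7 of the 218 pairs. The numbers were not taken as pairs in the main fit, and whether some numbers share a litter or batch was not tested. With Müller glia markers as a covariate, 0 genes were called higher and 0 lower at p14, 1 higher and 2 lower at p17, and 1 lower from p14 to p17 in OIR mice. In that limma fit the log2FC of Fdft1 at p17 lay at 0.0055 (adjusted p = 0.986). With endothelial markers, 0 were called higher and 0 lower at p17, in a fit that called 0.147% and 0.0442% of all genes tested, and the log2FC of Insig1 went from -0.69 to -0.88 and that of Pmvk from 0.98 to 0.22. With rod markers, 2 were called higher and 6 lower at p14, 3 higher and 6 lower at p17 (7 of the 10 lower calls lost, 3 gained), 1 lower with age in nOIR and 2 lower with age in OIR mice. Rescaling to the same total and DESeq2 each called 1 gene lower with age in OIR mice, Nsdhl. The cause was not tested in any of these. Leaving out 1 mouse gave 1 to 2 genes called higher at p14 (2 without OIR p14 mouse S1, by Srebf1) and 0 to 1 higher with age in OIR mice (1 without OIR p17 mouse S4, by Lbr). Of the called genes, Cyp51 at p17 lost its call under 18 of 40 alternatives, Fdps at p14 under 9 and Idi1 at p17 under 8, which include leaving out a single mouse. At p17, Sqle lost its call with the compared groups alone (adjusted p = 0.0525) and Msmo1 under quantile normalization (adjusted p = 0.0662). Fdps lost it without nOIR p14 mouse S2, S5 or S6 or OIR p14 mouse S1 or S4 (adjusted p 0.0551 to 0.0982). Idi1 lost it without nOIR p17 mouse S1 or S4 or OIR p17 mouse S4 or S5 (adjusted p 0.061 to 0.0734). Cyp51 lost it without any of 10 mice, namely nOIR p14 S6, nOIR p17 S2, S3, S5 or S6, OIR p14 S5, or OIR p17 S3, S4, S5 or S6 (adjusted p 0.0507 to 0.124). Srebf2 gained a call at p17 without OIR p14 mouse S1, and Srebf1 without that mouse or OIR p17 mouse S3, and also with the compared groups alone (adjusted p = 0.0258), quantile normalization (0.0287), equal totals (0.0317) and DESeq2 (0.0441). Whether depth limited the levels described was not tested, and Ch25h rests on few reads.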
